A study of Mus musculus with 12 samples.

Results

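The 9 CC chemokine genes Ccl2, Ccl3, Ccl4, Ccl5, Ccl6, Ccl7, Ccl9, Ccl12 and Ccl22 were taken by gene name from the 14264 genes of each of 2 deposited tables, and all 9 were present in both. The tables compare mouse bone marrow-derived macrophages that carry a hairpin against MOF (shMOF), the lysine acetyltransferase encoded by Kat8, with the same cells carrying a control hairpin (shCTRL). Cells of both kinds were left unstimulated or were given lipopolysaccharide (LPS), a bacterial cell wall product, at 100 ng/ml for 3 h, and each of the 4 groups has 3 libraries. The labels describe the control as wild type and give no second hairpin, no rescue, and no strain, sex or age of the mice. They do not say that the 3 libraries of a group came from separate animals or cultures, so the p-values measure only the spread between these samples. In bulk RNA, fewer expressing cells and less RNA per cell cannot be told apart.

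CC chemokines are small secreted proteins with adjacent cysteines near the amino terminus, and they guide leukocytes by binding G protein-coupled receptors. Macrophages are a main source of them once Toll-like receptor 4 has bound LPS and activated NF-kB and interferon signalling. Ccl2, Ccl7 and Ccl12 are monocyte chemoattractants that signal through CCR2. Ccl3, Ccl4 and Ccl5 are inflammatory chemokines that attract monocytes and T cells, Ccl6 and Ccl9 are rodent chemokines that bind CCR1, and Ccl22 attracts cells that carry CCR4.

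Of the 9 genes, 8 lie on chromosome 11 of mouse build GRCm38, in a pair of groups 1422 kb apart. The group of Ccl2 (82035571 to 82037453), Ccl7 (82045712 to 82047525) and Ccl12 (82101845 to 82103400) covers 67.8 kb, with all 3 genes on the plus strand. The group of Ccl5 (83525778 to 83530518), Ccl9 (83572919 to 83578636), Ccl6 (83587882 to 83593087), Ccl3 (83647844 to 83649355) and Ccl4 (83662584 to 83664683) covers 138.9 kb, and only Ccl4 of it is on the plus strand. Ccl22 stands apart, on chromosome 8 from 94745590 to 94751699, plus strand. Each is a short protein-coding gene of 2 to 5 separate exon blocks in GENCODE M21. No stretch of more than 25 bases was shared by the transcripts of any pair of members, the longest being that of Ccl6 and Ccl9, against reads of 100 bp. Ccl2 lies wholly within a gene model on the opposite strand, Gm17268, which was not analysed here, and Ccl6 within the non-coding E230016K23Rik. The library kit keeps strand, but the sources used here do not give whether the counting used it.

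RefSeq promoter windows on GRCm38.p6 matched 5 of the 9 genes: Ccl3, Ccl6, Ccl9, Ccl12 and Ccl22. Shown here are the 150 bases before the start site of 4 of them, because they set Ccl3, which rose in both states, beside 3 members that passed the test in neither: Ccl6 and Ccl9, of the same group of genes, and Ccl12, of the other group. Capitals mark matches to 1 of 6 motifs.
Ccl12, chr11:82101695-82101844, plus strand: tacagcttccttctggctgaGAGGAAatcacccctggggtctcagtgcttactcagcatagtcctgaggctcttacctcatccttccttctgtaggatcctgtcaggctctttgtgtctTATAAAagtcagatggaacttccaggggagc
Ccl9, chr11:83578637-83578786, minus strand: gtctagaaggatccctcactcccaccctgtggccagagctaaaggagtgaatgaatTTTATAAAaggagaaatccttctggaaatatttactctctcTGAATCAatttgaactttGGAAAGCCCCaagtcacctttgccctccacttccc
Ccl6, chr11:83593088-83593237, minus strand: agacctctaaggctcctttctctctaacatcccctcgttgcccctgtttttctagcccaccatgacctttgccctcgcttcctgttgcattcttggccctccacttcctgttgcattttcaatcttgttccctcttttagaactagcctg
Ccl3, chr11:83649379-83649528, minus strand: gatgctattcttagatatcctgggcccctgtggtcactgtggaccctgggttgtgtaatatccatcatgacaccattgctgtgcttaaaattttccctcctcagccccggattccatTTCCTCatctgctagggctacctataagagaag

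The motifs were searched on both strands of the 250 bases before each start site. Among the 5 windows, the NF-kB consensus matched in Ccl9 only, from base -35 to -26 counted from the start site, and it occurs in 7.25% of all 32851 windows of that length. The AP-1 motif TGANTCA matched in Ccl9 from -53 to -47 and occurs in 6.75% of all windows. The TATA motif TATAAA matched in Ccl12 from -31 to -26 and in Ccl9 from -92 to -87, where it overlaps a match on the other strand, with a further match on that strand from -224 to -219. TATAAA occurs in 12.4% of all windows. GAGGAA, a core of PU.1 sites, matched in Ccl12 from -130 to -125 and in Ccl3 from -33 to -28 on the other strand, against 23.3% of all windows. The C/EBP motif TTNNGCAA and the interferon-stimulated response element, found in 9.56% and 2.98% of all windows, were in none of the 5, which says only that these letters are not in these windows. The longest run of bases common to 2 of the 5 windows was 13, in Ccl6 and Ccl9.

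The level of each gene is known as the authors' mean normalized count, which was identical in both tables and thus belongs to no single group. The tables analysed here give no values per library, so no spread can be set on these levels. Summed, the 9 genes made up 0.720% of the mean normalized counts of all genes, and Ccl9 alone gave 39.2% of that sum. Per kb of exon the order from the highest was Ccl5 with 42761 mean normalized counts per kb, Ccl4 with 35914, Ccl3 with 33592, Ccl9 with 27333, Ccl2 with 15318, Ccl7 with 11896, Ccl6 with 4444, Ccl12 with 1405 and Ccl22 with 1157. Even Ccl22 stood at percentile 91.5 of all genes on this scale, and Ccl5 at 99.9. All 9 had mean normalized counts far above the lowest of all genes, 4.33, and all 9 entered every test. These means do not give the level in unstimulated cells alone.

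The targeted gene was low with the hairpin in both states. Kat8 had a log2 fold change of -2.25 (SE 0.10) in unstimulated cells and -2.31 (SE 0.13) at LPS 3 h by the authors' deposited table, which is 0.210-fold and 0.201-fold of control. All 8 macrophage markers listed were measured, with mean normalized counts from 1233 for Mertk to 259735 for Lyz2. Of these, 7 rose unstimulated, while 5 rose and 1 fell at LPS 3 h. Over all genes tested, 21.3% rose and 17.8% fell unstimulated, and 28.1% rose and 20.0% fell at LPS 3 h. Of the markers of other cells, some were at levels like those of macrophage markers, as Fscn1 of dendritic cells with a mean normalized count of 1603, and others were low or not analysed here. For monocytes 4 of 6 were measured (summed mean normalized count 635.0), for dendritic cells 3 of 10 (1780), for neutrophils 2 of 9 (27.7), for mast cells and basophils 1 of 6 (6.10), for T and NK cells 1 of 8 (166.9), for B cells 1 of 5 (103.8) and for stromal and endothelial cells 8 of 8 (1808). The summed level of the macrophage markers was 482312. Some markers of other cells also moved with the hairpin, to be read beside the same shares of all genes. Stromal and endothelial markers rose in 3 of 8 cases unstimulated and in 5 of 8 at LPS 3 h, monocyte markers in 1 of 4 in each state, dendritic cell markers in 0 and 3 of 3, and the B cell marker Cd79b in both, while the other 4 markers, of neutrophils, mast cells and T cells, did not pass. None of the markers outside the macrophage list fell. Their part in the chemokine results was not tested.

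In unstimulated macrophages the monocyte attractants Ccl7 and Ccl2 and, by less, Ccl5 were lower with MOF knockdown and Ccl3 was higher, while Ccl6 and Ccl9 lay close to the control level. The threshold was an adjusted p of 0.05 over all genes of the table, by the authors' DESeq2 Wald test. In all, 4 of the 9 genes passed it, 1 higher and 3 lower, beside 39.1% of all genes called (21.3% higher and 17.8% lower). The members' median log2 fold change was -0.33, against 0.03 over all genes tested.

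Ccl7 (ENSMUSG00000035373.2), per the authors' deposited table, had the largest change of the 9, a log2 value of -1.82 (SE 0.17, adjusted p = 5.71e-26). Knockdown cells thus held 0.282-fold of the control level, with a 95% interval of 0.225 to 0.354, and 0.960% of all genes had a fold change as low or lower. In the authors' deposited table Ccl2 (ENSMUSG00000035385.5), which starts 10.1 kb before Ccl7, had -1.09 (SE 0.15, adjusted p = 1.08e-11). That is 0.471-fold of control (0.384 to 0.578), a smaller fall than that of Ccl7 by 0.74 on the log2 scale (95% interval 0.30 to 1.18). Per the authors' deposited table, the third gene of this group, Ccl12 (ENSMUSG00000035352.3), had -0.33 (SE 0.23, adjusted p = 0.267). It lay above Ccl2 by 0.75 on the log2 scale (95% interval 0.21 to 1.30) and above Ccl7 by 1.49 (0.93 to 2.05), so these 3 CCR2 ligands differed from each other beyond their error.

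Among Ccl3, Ccl4 and Ccl5, inflammatory chemokines, the directions of the called genes were opposite. Ccl3 (ENSMUSG00000000982.5), per the authors' deposited table, rose by 0.63 (SE 0.07, adjusted p = 3.98e-16), or 1.55-fold (95% interval 1.40 to 1.72). According to the authors' deposited table, Ccl4 (ENSMUSG00000018930.3), 13.2 kb from Ccl3 between start sites, had 0.22 (SE 0.10, adjusted p = 0.0807). Ccl3 exceeded Ccl4 by 0.41 on the log2 scale (95% interval 0.16 to 0.67). By the authors' deposited table, Ccl5 (ENSMUSG00000035042.2), the most abundant member per kb, fell by 0.43 (SE 0.09, adjusted p = 9.24e-06), to 0.743-fold (0.659 to 0.838). That call was lost when changes of up to 0.25 on the log2 scale counted as none, where the adjusted p was 0.331 (2.07e-06 to 0.331 over the alternatives).

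The remaining 3 genes did not pass. Ccl6 (ENSMUSG00000018927.3), per the authors' deposited table, had 0.12 (SE 0.07, adjusted p = 0.192) and Ccl9 (ENSMUSG00000019122.8) 0.01 (SE 0.05, adjusted p = 0.933). Their intervals were narrow, -0.02 to 0.26 on the log2 scale for Ccl6 and -0.10 to 0.11 for Ccl9. Ccl22 (ENSMUSG00000031779.3), by the authors' deposited table, had -0.78 (SE 0.48, adjusted p = 0.201), with an interval from 0.304-fold to 1.12-fold. The error of Ccl22 was 8.44 times the median SE of the 2976 genes whose mean normalized count lies within 2-fold of its own, so neither a fall like that of Ccl2 nor no change is outside its interval. By the same measure the SE of Ccl12 was 3.19 times, that of Ccl7 3.04 times and that of Ccl2 2.68 times the median. The other members had 0.94 to 1.84 times.

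After 3 h of LPS Ccl3 and Ccl4 were more than 2-fold higher in knockdown cells, and Ccl7 and Ccl22 were lower. At this time 4 of the 9 genes passed the test, 2 higher and 2 lower, beside 48.0% of all genes called (28.1% higher and 20.0% lower). The members' median log2 fold change was 0.07, against 0.03 over all genes tested. Ccl3 and Ccl7 were called in both states, in the same direction.

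Ccl4, in the authors' deposited table, rose by 1.30 (SE 0.09, adjusted p = 3.99e-45), or 2.47-fold (95% interval 2.18 to 2.79). Ccl3, per the authors' deposited table, rose by 1.15 (SE 0.06, adjusted p = 2.52e-71), or 2.22-fold (2.04 to 2.43). These genes, next to each other on the chromosome and on opposite strands, did not differ beyond their error, with Ccl4 above Ccl3 by 0.15 (95% interval -0.07 to 0.36). Both stood above percentile 98 of all genes, at 98.8 for Ccl4 and 98.3 for Ccl3. In the authors' deposited table Ccl5, the remaining gene of this set, had 0.09 (SE 0.08, adjusted p = 0.385), with an interval from 0.954-fold to 1.18-fold.

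Ccl7 stayed low, in the authors' deposited table, falling by 0.79 (SE 0.14, adjusted p = 1.47e-07), to 0.578-fold (95% interval 0.477 to 0.701). Ccl2, per the authors' deposited table, had -0.28 (SE 0.13, adjusted p = 0.0736), or 0.826-fold (0.690 to 0.989). Of the alternatives run, it passed only when fold changes were centred on the median of all genes (adjusted p = 0.0411, with 0.0411 to 1 over the alternatives). Ccl12, by the authors' deposited table, had 0.31 (SE 0.16, adjusted p = 0.0971), 1.24-fold with an interval of 0.998 to 1.53. Again the CCR2 ligands spread out in the order Ccl7, Ccl2, Ccl12, with Ccl12 above Ccl2 by 0.58 (95% interval 0.18 to 0.99). Ccl22, in the authors' deposited table, fell by 0.61 (SE 0.20, adjusted p = 0.00812), to 0.657-fold (0.498 to 0.868). The Ccl22 call was lost against a null of up to 0.25, with an adjusted p = 0.361 (0.00492 to 0.361 over the alternatives). The unstimulated SE of Ccl22 was 2.34 times this one, which was still 3.84 times the median SE of genes of like level. At LPS 3 h the same ratio was 2.87 for Ccl7, 2.62 for Ccl2 and 2.20 for Ccl12. Ccl6 at 0.07 (SE 0.06) and Ccl9 at -0.02 (SE 0.05) did not pass in the authors' deposited table, and their intervals lay between 0.920-fold and 1.15-fold.

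**Figure D1:**
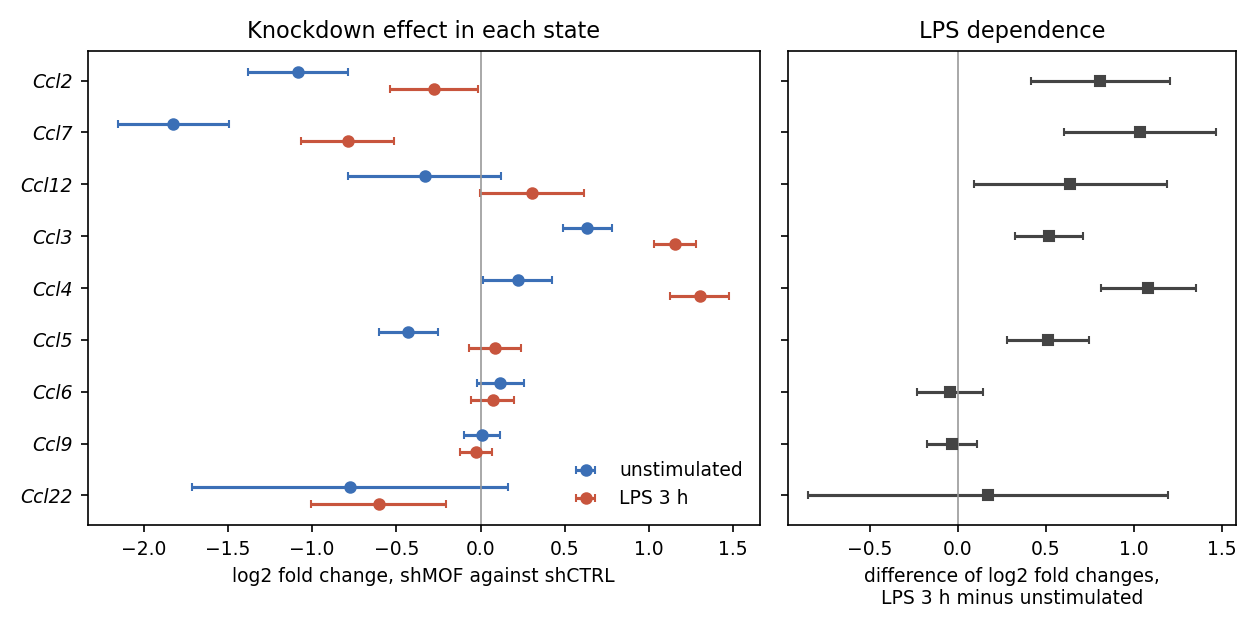
Left, log2 fold change of shMOF against shCTRL for each CC chemokine gene in unstimulated cells (blue) and after 3 h of LPS (red); right, the difference of these values, LPS 3 h minus unstimulated. Points are the estimates and bars their 95% intervals. Ccl7 and Ccl2 are lowest unstimulated, Ccl4 and Ccl3 highest with LPS, and Ccl6 and Ccl9 lie within 0.12 of 0 in both states.

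Whether the effect of knockdown itself depended on LPS was tested as the difference of the 2 log2 fold changes, with p-values adjusted over the 12994 genes whose mean normalized count reached 10. The effect was more positive with LPS for 5 of the 9 genes and more negative for 0, beside 30.6% of all genes called (18.2% more positive and 12.4% more negative). Ccl4 had the largest difference, 1.08 (SE 0.14, adjusted p = 2.35e-13), so its knockdown-to-control ratio was 2.12 times as high with LPS as without. Ccl7 had 1.03 (SE 0.22, adjusted p = 2.61e-05), Ccl2 0.81 (SE 0.20, adjusted p = 4.21e-04), Ccl3 0.52 (SE 0.10, adjusted p = 1.62e-06) and Ccl5 0.51 (SE 0.12, adjusted p = 1.26e-04). The starting points of these 5 were unlike. Ccl7 was lower in both states, by less with LPS, and Ccl3 higher in both, by more with LPS, while Ccl4 was past the threshold only with LPS and Ccl2 and Ccl5 only without.

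Ccl12 had a difference of 0.64 (SE 0.28), larger than those of Ccl3 and Ccl5 and smaller than those of Ccl2, Ccl7 and Ccl4. This difference did not pass (adjusted p = 0.0686). It passed with errors of the 2 effects correlated at 0.5 (adjusted p = 0.00540, with 0.00540 to 0.183 over the alternatives). Ccl6, at -0.05 (SE 0.10, adjusted p = 0.771), had a 95% interval of the difference from -0.23 to 0.14. For Ccl9, at -0.03 (SE 0.07, adjusted p = 0.782), it was -0.18 to 0.11. Ccl22, at 0.17 (SE 0.52, adjusted p = 0.844), had an interval from -0.85 to 1.19, so a dependence as large as that of Ccl4 was not outside its error.

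Ordered by fold change, neighbouring members mostly did not differ beyond their error. In unstimulated cells the order from the lowest was Ccl7, Ccl2, Ccl22, Ccl5, Ccl12, Ccl9, Ccl6, Ccl4 and Ccl3, and of the 8 steps only those from Ccl7 to Ccl2 and from Ccl4 to Ccl3 had a 95% interval without 0. At LPS 3 h the order was Ccl7, Ccl22, Ccl2, Ccl9, Ccl6, Ccl5, Ccl12, Ccl3 and Ccl4, with 1 such step, from Ccl12 to Ccl3, of 0.85 (95% interval 0.51 to 1.18). These intervals take the errors of 2 genes in the same libraries as uncorrelated and are not adjusted for the number of pairs.

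**Figure D2:**
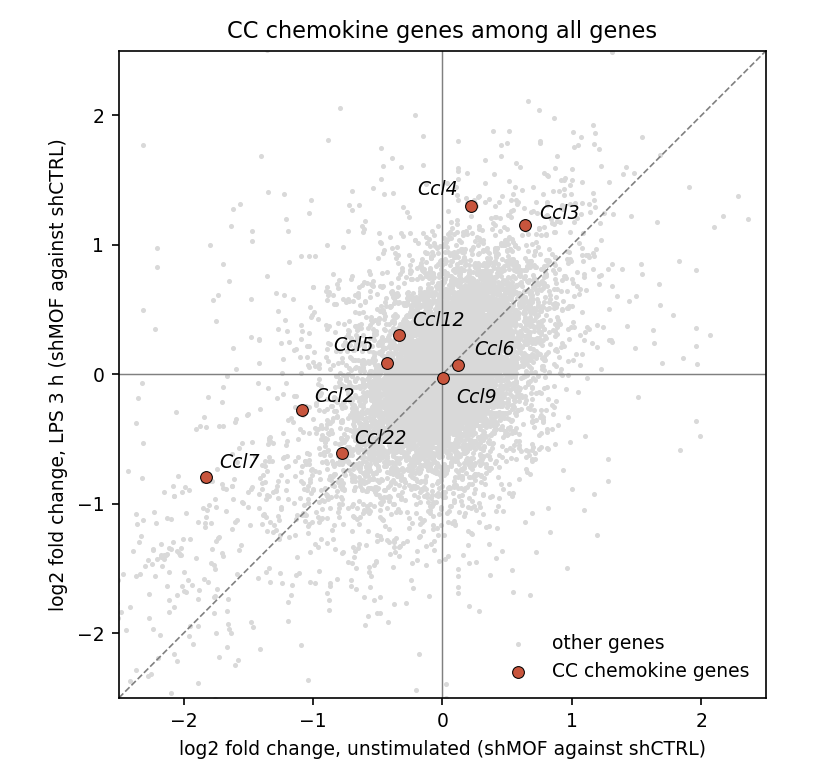
Log2 fold change of shMOF against shCTRL in unstimulated cells (horizontal) and after 3 h of LPS (vertical) for 12994 genes whose mean normalized count reached 10 (grey), with the 9 CC chemokine genes in red. The dashed line marks equal effects, and 24 genes lie outside the axes. Ccl4, Ccl7, Ccl2, Ccl12, Ccl3 and Ccl5 lie above the line by 0.51 to 1.08, and Ccl6, Ccl9 and Ccl22 by -0.05 to 0.17.

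Genes with the most similar pair of fold changes were found by Euclidean distance over the 2 comparisons, among 10174 genes whose mean reached 50, for the 4 members with the largest difference between states. Nearest to Ccl4 were Fabp4, Noct and Syne3, at distances of 0.03 to 0.07 on the log2 scale. Cenph, Cbx5 and Brip1 were nearest to Ccl7, at 0.05 to 0.15. For Ccl2 they were Spdl1, E2f5 and Rad18, at 0.03 to 0.06, and for Ccl12 Gna13, Dek and Crkl, at 0.02 each. The fold changes of Gna13, Dek and Crkl passed the threshold in both states and those of Ccl12, with its larger SE, in neither.

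From Ccl2 to Ccl4 the tables hold 25 other tested genes, of which 5 rose and 3 fell unstimulated, beside 39.1% of all genes called, and 10 rose and 6 fell at LPS 3 h, beside 48.0%. Their median log2 fold changes were 0.05 and 0.15. Per the authors' deposited table, the next gene after Ccl12, the CC chemokine gene Ccl8, had 0.10 (SE 0.16) and -0.08 (SE 0.11). Right before Ccl5 is Heatr9, with the authors' deposited values of -1.48 (SE 1.20) and 0.29 (SE 0.22), not past the threshold in either state. According to the authors' deposited table, E230016K23Rik, which contains Ccl6, had 0.19 (SE 0.45, adjusted p = 0.789) and -0.87 (SE 0.38, adjusted p = 0.0464). Of these 25 genes 4 had a more positive effect with LPS, Slfn9, Slfn3, Slfn2 and Taf15, and 0 a more negative one. Over all genes tested, 18.2% had a more positive and 12.4% a more negative effect. By the authors' deposited table, beyond Ccl4 the nearest tested gene, Wfdc17, rose by 0.50 (SE 0.09) unstimulated and had 0.05 (SE 0.08) at LPS 3 h.

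**Figure D3:**
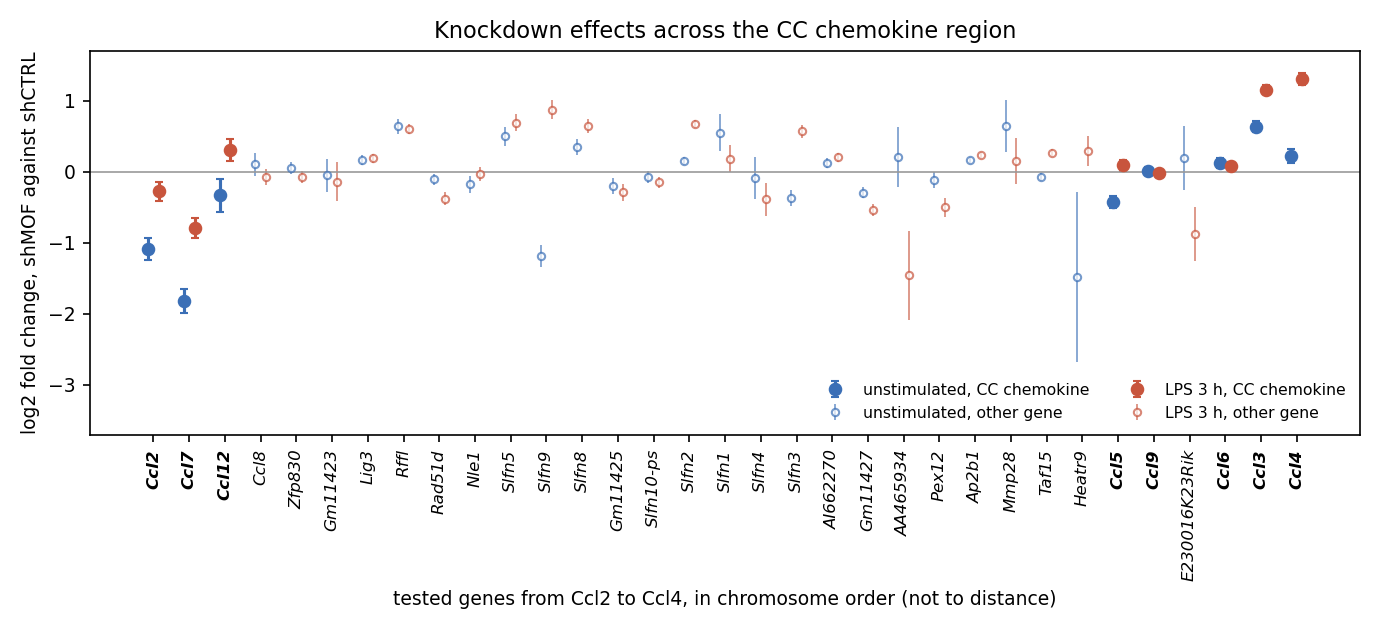
Log2 fold change of shMOF against shCTRL for each tested gene from Ccl2 to Ccl4 on chromosome 11, in chromosome order and not to distance, unstimulated (blue) and after 3 h of LPS (red). Filled points are CC chemokine genes, open points the 25 other genes, and bars are the SE. Ccl6 and Ccl9 lie near 0 in both states, between Ccl5, lower only unstimulated, and Ccl3, higher in both.

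Of the other CC chemokines on the list, 5 of 12 were measured, all at a mean normalized count of at most 257.3. Of these 0 rose and 1 fell unstimulated, beside 39.1% of all genes called. At LPS 3 h 1 rose and 2 fell, beside 48.0%. Within the authors' deposited table, Ccl17, which like Ccl22 acts on CCR4, had 0.12 (SE 1.69) unstimulated and fell by 1.51 (SE 0.31, adjusted p = 3.94e-06) at LPS 3 h, from a mean normalized count of only 29.4. Per the authors' deposited table, Ccl25, a chemokine of thymus and gut, fell by 0.36 (SE 0.12) and by 0.57 (SE 0.13). According to the authors' deposited table, the eosinophil attractant gene Ccl24 had 0.87 (SE 0.60) and rose by 0.74 (SE 0.23) at LPS 3 h, and Ccl27a, with a mean normalized count of 7.70, did not pass in either state.

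The CXC, XC and CX3C chemokines had 12 of 17 genes measured, 2 higher and 1 lower unstimulated and 7 higher and 1 lower at LPS 3 h. Their medians were -0.18 and 0.44, against 0.03 over all genes in each state. Of all genes, 39.1% were called unstimulated and 48.0% at LPS 3 h. By the authors' deposited table, Cxcl10, an interferon-induced attractant of T cells, fell by 1.65 (SE 0.25, adjusted p = 2.41e-10) unstimulated and rose by 0.72 (SE 0.21, adjusted p = 0.00155) at LPS 3 h. The effect on Cxcl10 was more positive with LPS by 2.38 (SE 0.32, adjusted p = 6.57e-12), in the same direction as those of Ccl2, Ccl4 and Ccl7. In the authors' deposited table Cxcl2, a neutrophil attractant, had -0.18 (SE 0.12) and rose by 0.57 (SE 0.09), with a difference of 0.75 (SE 0.15, adjusted p = 1.35e-05). Pf4, in the authors' deposited table, rose in both states, by 0.79 (SE 0.09) and 0.71 (SE 0.08), and the membrane-bound Cx3cl1 had 0.17 (SE 0.12) and rose by 0.43 (SE 0.08).

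Of 10 CC chemokine receptor genes listed 5 were measured, 1 higher and 1 lower unstimulated, beside 39.1% of all genes called, and 3 higher and 1 lower at LPS 3 h, beside 48.0%. Per the authors' deposited table, Ccr1, a receptor of Ccl3, Ccl5, Ccl6, Ccl7 and Ccl9, fell by 0.36 (SE 0.07) and by 0.68 (SE 0.07), and by more with LPS (difference -0.32, SE 0.10, adjusted p = 0.00607). According to the authors' deposited table, Ccr2, the receptor of Ccl2, Ccl7 and Ccl12, had -0.04 (SE 0.09) and -0.17 (SE 0.10) and did not pass. By the authors' deposited table, Ccr3, known from eosinophils, had 0.17 (SE 0.08) and rose by 0.49 (SE 0.07). Within the authors' deposited table, Ccr1l1, a gene similar to Ccr1, rose by 1.09 in both states (SE 0.13 and 0.17), and Ccr9 had -0.47 (SE 1.33) and rose by 0.78 (SE 0.27) at a mean normalized count of 21.1. Of 5 atypical receptor genes only Ccrl2 was measured, and the authors' deposited table gives it 0.21 (SE 0.09) unstimulated and a rise of 0.78 (SE 0.06) with LPS.

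In lists of genes that relay LPS to the chemokine promoters or restrain that relay, most called genes were higher. Over all genes, 39.1% were called unstimulated, 21.3% higher and 17.8% lower. At LPS 3 h 48.0% were called, 28.1% higher and 20.0% lower. For the TLR4 receptor and its adaptors 5 of 17 rose and 2 fell unstimulated, and 10 rose and 2 fell at LPS 3 h. Tlr4 itself, in the authors' deposited table, fell by 0.76 (SE 0.05) and by 0.88 (SE 0.06), and the adaptor gene Tab2 rose by 0.37 (SE 0.06) and 0.76 (SE 0.05). The adaptor gene Tab1, by the authors' deposited table, had 0.09 (SE 0.08) unstimulated and fell by 0.97 (SE 0.12) at LPS 3 h. Of 13 genes of NF-kB, its kinases and inhibitors 7 rose and 1 fell unstimulated, and 11 rose and 0 fell at LPS 3 h, with medians of 0.17 and 0.52. In this list the effect was more positive with LPS for 9 of 13 genes and more negative for 0. Over all genes these shares were 18.2% and 12.4%. In the TLR4 list the effect was more positive with LPS for 6 of 16 genes tested and more negative for 2. The TRIF and type I interferon list had 2 and 2 of 13, and signalling genes downstream of chemokine receptors 5 and 5 of 15. Per the authors' deposited table, Rel, a subunit of NF-kB, rose by 0.17 (SE 0.06) and 0.97 (SE 0.05), and the inhibitor gene Nfkbia had 0.08 (SE 0.04) and rose by 0.56 (SE 0.03) at LPS 3 h. In the TRIF and type I interferon list 9 of 13 rose and 0 fell in each state, with medians of 0.26 and 0.20. According to the authors' deposited table, Irf1, an interferon regulatory factor, led it, with rises of 0.74 (SE 0.08) and 1.13 (SE 0.07). Signalling genes downstream of chemokine receptors had 12 of 15 higher and 1 lower unstimulated, and 9 higher and 5 lower at LPS 3 h. By the authors' deposited table, Pik3cg, a kinase activated by G proteins, rose by 0.89 (SE 0.06) and 0.54 (SE 0.06), and the receptor-arresting Arrb2 rose by 0.27 (SE 0.04) unstimulated but fell by 0.35 (SE 0.04) with LPS. No test set these lists against other genes.

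**Figure D4:**
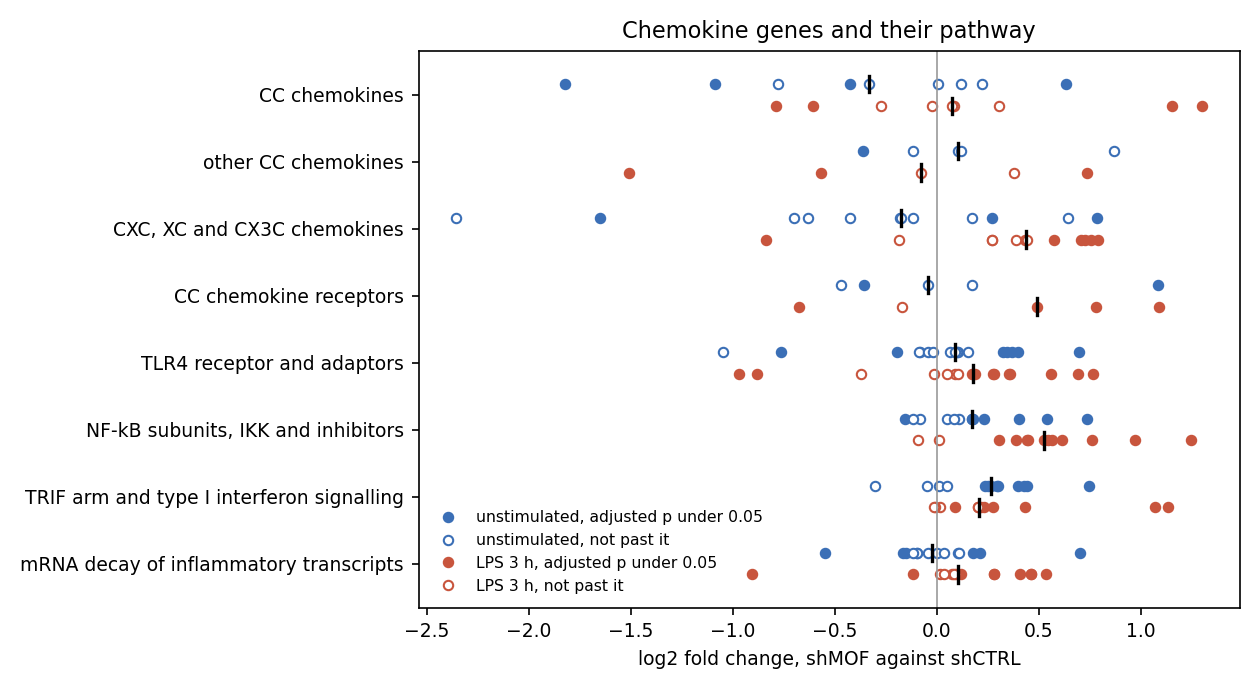
Log2 fold change of shMOF against shCTRL for the measured genes of 8 lists, unstimulated (blue) and after 3 h of LPS (red). Filled points passed an adjusted p of 0.05, open points did not, and black bars are list medians. The NF-kB list shifts from a median of 0.17 to 0.52, and CC chemokines from -0.33 to 0.07.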

How the data were processed

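RNA from 12 libraries was measured by stranded, paired-end mRNA sequencing, per the labels' protocols. The authors deposited 1 table per LPS state; the submitters' processing notes name DESeq2 and mm10, and for the aligner, counter and annotation nothing is given in the sources used here. Per the file headers, each table holds a mean normalized count (a signal), a log2 fold change of shMOF against shCTRL, its standard error, a Wald statistic (a score), a p-value and an adjusted p-value. The deposited statistic equalled fold change over SE to within 1.53e-13, and the Benjamini-Hochberg method, applied to 14264 genes unstimulated and 13987 at LPS 3 h, gave the authors' adjusted p back to within 1.39e-15. Depth per library is unknown, so precision is known through the SE only.

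The authors' values were used as they stand. Differences between states were tested by a two-sided z test on the difference of the log2 fold changes, whose variance is the sum of both variances because the comparisons share no library, with Benjamini-Hochberg adjustment. Intervals are 95% normal intervals. Coordinates and exon lengths come from GENCODE M21 (14214 genes matched by Ensembl ID). Named genes are the members, Kat8, measured CC chemokines and receptors (1 further receptor, in no list, is not reported here), genes taken from the 4 with the smallest p of each other list, genes within the chromosome 11 span, and the nearest 3 genes to 4 members; of the latter 2 kinds some are counted only. Ccl8, Heatr9 and Wfdc17 were picked as direct neighbours. The members and the 19 other lists (146 of 200 genes measured) were chosen with earlier results of these data known. Alternatives were centring, other sets of genes for the adjustment, a threshold of 0.01, minimum changes, a t distribution with 8 degrees of freedom and correlated errors. Python 3.11.15, scipy 1.17.1 and pandas 2.3.3 were used.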

Additional observations from a re-analysis of the deposited data

Results flagged for a closer look

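For 5 CC chemokine genes the knockdown effect differed between the 2 states by the test of the difference itself, LPS 3 h minus unstimulated. On the log2 scale the differences were 0.81 for Ccl2, 0.52 for Ccl3, 1.08 for Ccl4, 0.51 for Ccl5 and 1.03 for Ccl7. The differences for Ccl12, Ccl22, Ccl6 and Ccl9 did not pass. Of all genes tested, 30.6% passed.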

How the results depend on the processing

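Of 189 values of single members under the alternatives, 180 kept their direction and their side of the threshold. The exceptions were 6 lost calls, 2 gained calls and 1 reversal, Ccl9 in unstimulated cells at -0.020 after centring, a value that was not called in either case. With a minimum log2 change of 1, 2 members passed unstimulated (Ccl7 and Ccl2) and 2 at LPS 3 h (Ccl3 and Ccl4), against 4 each without it, and the calls of Ccl3 and Ccl5 unstimulated and of Ccl7 and Ccl22 at LPS 3 h were lost. The other 19 counts of members stayed within 1.5 times the reported ones, and all 5 members called for LPS dependence also passed with errors correlated at -0.5 and with the t distribution. Calls over all genes moved by more than 1.5 times under some settings. With a minimum log2 change of 1 they went from 5575 to 484 unstimulated and from 6718 to 693 at LPS 3 h, and against a null of up to 0.25 to 1339 and 2175. Calls of LPS dependence went from 3977 to 6179 with errors correlated at 0.5 and to 2332 with the t distribution. Of 798 list counts, 151 moved by more than 1.5 times, 81 of them under the minimum change or the wider null. No paired analysis was possible because the tables analysed here give comparisons and no values per library; for the same reason no library could be left out.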

Other observations

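The lists of genes that act on chemokines after transcription are read beside 39.1% of all genes called unstimulated and 48.0% at LPS 3 h. Of 14 genes listed for the decay of inflammatory mRNAs 3 rose and 3 fell unstimulated, and 7 rose and 2 fell at LPS 3 h. Those that rose at LPS 3 h include Elavl1 and Tnip1, which do not encode decay factors. Within the authors' deposited table, Zfp36l2, which encodes an AU-rich element binding protein, had 0.00 (SE 0.08) and fell by 0.91 (SE 0.09) at LPS 3 h, while the RNase gene Zc3h12a rose by 0.18 (SE 0.06) and 0.54 (SE 0.04) and Cnot6, a deadenylase gene, fell by 0.55 (SE 0.04) and by 0.12 (SE 0.04). Genes that make or carry the glycosaminoglycans to which chemokines bind had 9 of 14 higher and 1 lower unstimulated, and 11 higher and 1 lower at LPS 3 h. The syndecan gene Sdc4, per the authors' deposited table, rose by 0.40 (SE 0.05) and 1.22 (SE 0.04), the largest rise of the list at LPS 3 h, and had a difference of 0.81 (SE 0.06, adjusted p = 1.67e-37 by the test of the difference). Among extracellular proteases 2 of 10 rose and 2 fell unstimulated, and 3 rose and 1 fell at LPS 3 h. Mmp14, by the authors' deposited table, rose by 0.88 (SE 0.14) unstimulated and had 0.07 (SE 0.06) with LPS, and Ctsl fell by 0.79 (SE 0.06) and by 0.53 (SE 0.05).

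Between the 2 chemokine groups on chromosome 11 lie the Schlafen genes, a family of close copies whose reads may be split between members. Slfn9, in the authors' deposited table, fell by 1.19 (SE 0.15, adjusted p = 2.41e-13) unstimulated and rose by 0.87 (SE 0.14, adjusted p = 1.50e-09) at LPS 3 h. Slfn3, per the authors' deposited table, fell by 0.37 (SE 0.11) and rose by 0.57 (SE 0.09), and Slfn2 rose by 0.15 (SE 0.06) and 0.67 (SE 0.05). The differences were 2.06 (SE 0.21) for Slfn9, 0.94 (SE 0.14) for Slfn3 and 0.52 (SE 0.08) for Slfn2.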
